A study of Homo sapiens with 6 samples.

Results

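The 10 genes described here encode subunits of cohesin (SMC1A, SMC3, RAD21, STAG1 and STAG2) and of condensin I (SMC2, SMC4, NCAPD2, NCAPG and NCAPH). They were taken by symbol from the 26364 genes of the authors' deposited table, and all 10 symbols were listed. The 2 groups were REH cells kept for 6 h with 50 µM S3I-201, an inhibitor directed at the transcription factor STAT3, and REH cells kept for 6 h with DMSO, the solvent. Both groups come from REH, an established cell line grown from a human B-precursor acute lymphoblastic leukaemia. Each group held 3 RNA-seq libraries from independent experiments. For each gene the table gives 4 values over the 6 libraries together: the mean normalized count, the log2 fold change, its p-value and its adjusted p. Values of single libraries can therefore not be given.

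Cohesin and condensin are rings built on a pair of SMC proteins, long coiled-coil ATPases whose heads are closed by another protein, the kleisin. Cohesin holds sister chromatids together from S phase until anaphase and forms chromatin loops in interphase. Condensin I reaches chromosomes after the nuclear envelope breaks down and compacts them for division. Cohesin is therefore needed all through the cycle of a dividing leukaemia cell, whereas condensin I acts mainly in mitosis.

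The table does not name the group that served as reference. A positive value was taken to mean higher in S3I-201, since DESeq2, the tool that the submitters name, takes the alphabetically first group, DMSO, as reference unless told otherwise. Under the opposite reading every direction below would turn. The fold changes appear to have been pulled towards 0, since genes detected with a single read had log2 sizes of only 0.033 to 0.042. From the steps of such genes the 6 libraries were estimated to hold 6600000 to 14500000 counts each. The lowest estimate belonged to an S3I-201 library as read, and the next lowest was 10900000. Of 12 markers of B-cell precursors, 11 had a mean above 0 and VPREB1 was at 0, which was noted after its value was seen. Of 12 markers of other cell types, 5 were at 0 and 6 had means of 0.135 to 40.6. The exception was the myeloid enzyme MPO, named after its value was seen, at 978.

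None of the cohesin or condensin I genes passed an adjusted p of 0.05. Of the 10, 9 were tested by the authors with DESeq2 and 0 passed, beside 5.90% of all 11912 tested genes. Among the 2718 tested genes of similar abundance, with a mean normalized count of 1000 to 7000, the share called was 8.06%. An unadjusted p under 0.05 was reached by 1 of the 9, NCAPH, beside 16.0% of all tested genes and 19.8% of those of similar abundance, so this count is no more than the background. NCAPD2 had a fold change but no p-value. Log2 fold changes were negative for 9 of the 10 in the authors' deposited table, beside 61.0% of the tested genes of similar abundance. The members' median was -0.15, against -0.05 in that abundance range and -0.02 over all tested genes. No p is given for the members as a group. An implied SE was obtained by dividing the size of each deposited log2 fold change by the normal deviate that its p-value corresponds to, and 95% intervals were built from it. Intervals of the 9 tested genes together spanned -0.95 to 0.53 on the log2 scale. Both the fold changes and the implied SE derived from them appear pulled towards 0. Over all 11912 tested genes the implied SE was at most 0.27. The intervals therefore set no bound on the size of a change before this pull.

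**Figure D1:**
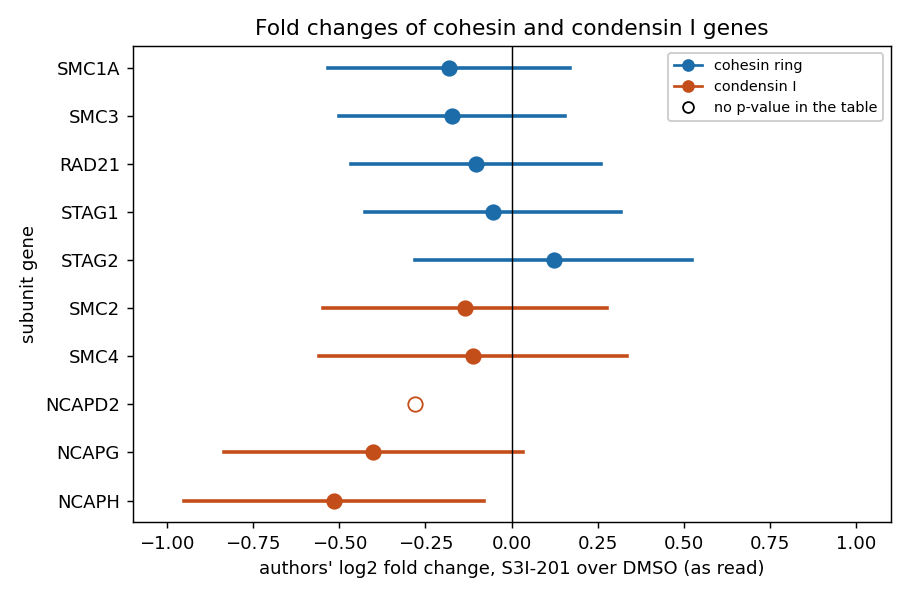
Authors' log2 fold change of each subunit gene (x axis, S3I-201 over DMSO as read) with its 95% interval from the implied SE; blue is cohesin, orange condensin I, and the open point is NCAPD2, which has no p-value. Cohesin genes lie between -0.18 and 0.12, and NCAPH at -0.52 is the gene whose interval does not hold 0.

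Among the SMC proteins of cohesin, SMC1A had a mean normalized count of 5169 and a deposited log2 fold change of -0.18 (implied SE 0.18, adjusted p = 0.717; the authors' deposited table, as for all fold changes and adjusted p-values of the subunits). SMC3, its partner in the ring, had a mean of 2367 and -0.17 there (adjusted p = 0.712, implied SE 0.17). The pair thus had nearly equal fold changes, both within about a single implied SE of 0. RAD21, the kleisin that separase cleaves at anaphase, had a mean of 3827 and -0.10 on the log2 scale, as the authors' deposited table gives it (adjusted p = 0.878, implied SE 0.19). SMC1A lies on chromosome X from 53374149 to 53422728, SMC3 on chromosome 10 from 110567691 to 110604636 and RAD21 on chromosome 8 from 116845935 to 116874866 (GENCODE 29, hg38, whole gene).

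STAG1 and STAG2 are alternative subunits that bind the kleisin, and a cohesin complex carries either of them. STAG2 had a log2 fold change of 0.12 (adjusted p = 0.863, implied SE 0.21), the only positive value among the 10, in the authors' deposited table. STAG1 stood at -0.05 there (adjusted p = 0.945, implied SE 0.19), the fold change nearest to 0 of the 10 genes. Their 95% intervals, -0.28 to 0.53 for STAG2 and -0.42 to 0.32 for STAG1, overlapped over most of their length, and the difference between the genes was not tested. STAG1 lies on chromosome 3 from 136336233 to 136752403 and STAG2 on chromosome X from 123960212 to 124422664 (hg38). The interval of each cohesin gene held 0, and the cohesin median was -0.10.

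In condensin I the SMC pair had fold changes nearer to 0 than the other subunits, and this difference was not tested. SMC4 had a mean normalized count of 6066, the highest of the 10 genes, and -0.11 on the log2 scale, as the authors' deposited table gives it (adjusted p = 0.896, implied SE 0.23). SMC2, with which it pairs, had a mean of 2119 and -0.14 there (adjusted p = 0.849, implied SE 0.21). These 2 proteins are also part of condensin II, while NCAPD2, NCAPG and NCAPH belong to condensin I alone.

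NCAPH, the kleisin of condensin I, had a mean of 1315 and the lowest fold change, with a log2 value of -0.52 in the authors' deposited table, or 0.700-fold (implied SE 0.22, 95% interval -0.95 to -0.08). Its unadjusted p was 0.0199 and its adjusted p 0.184, so the gene did not pass. NCAPG, a HEAT-repeat subunit, had a mean of 1690 and -0.40, or 0.757-fold, in the authors' deposited table (implied SE 0.22, 95% interval -0.84 to 0.03, unadjusted p = 0.0705, adjusted p = 0.379). NCAPD2, the other HEAT-repeat subunit, had a mean of 3539 and -0.28 in that table, with no p-value, so no error can be set beside it. DESeq2 by default leaves out the p-value of a gene with an outlying count, and here that value was missing for 50 of 2768 genes of similar abundance (1.81%). Of the tested genes of similar abundance, 1.99% had a lower fold change than NCAPH, 3.83% a lower one than NCAPG and 10.7% a lower one than NCAPD2. NCAPH lies on chromosome 2 from 96335787 to 96373845, NCAPG on chromosome 4 from 17810902 to 17844862 and NCAPD2 on chromosome 12 from 6493356 to 6531955 (hg38). SMC4 lies on chromosome 3 from 160399274 to 160434962, and SMC2 on chromosome 9 from 104094260 to 104141417 (hg38).

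Each tested subunit gene had a larger implied SE than most tested genes of similar abundance. All 9 tested genes had an implied SE above 0.15, the median of tested genes of similar abundance. The implied SE ran from 0.17 to 0.21 in cohesin and from 0.21 to 0.23 in condensin I, and only 0.589% of tested genes of similar abundance had a larger implied SE than SMC4. The least significant gene called in the whole table had an unadjusted p of 0.00294. At the implied SE of NCAPH a log2 size of 0.66 would have been needed to reach that p, and its measured size was 78.3% of this. NCAPG reached 60.8% of the size it needed, and the other 7 tested genes 9.51% to 34.8%. Over all tested genes of similar abundance the smallest called size was 0.34, below the sizes measured for NCAPG and NCAPH. The part of spread in the lack of calls was not tested.

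**Figure D2:**
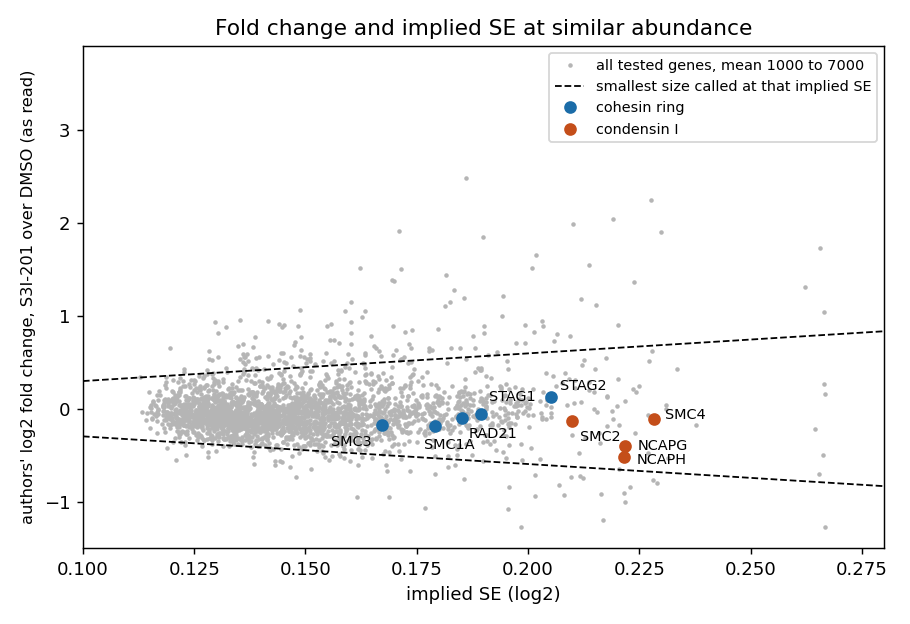
Authors' log2 fold change (y axis, S3I-201 over DMSO as read) against implied SE (x axis) for the 2718 tested genes with a mean normalized count of 1000 to 7000 (grey), with the 9 tested subunit genes in colour; dashed lines mark the size needed for a call. All 9 lie inside the lines and to the right of the median implied SE of 0.15, with NCAPH at 78.3% of the size needed.

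Short stretches of DNA before RefSeq starts are shown for NCAPH, NCAPG and NCAPD2, which had the lowest fold changes. They are also shown for SMC4 and SMC3, the other members found to hold the first of the motifs below. Genes of G2 and mitosis are known to be controlled through the cell cycle homology region, or CHR, and the CCAAT box in promoters. The searched letters were TTTGAA or TTCGAA for the CHR and CCAAT for the CCAAT box, on both strands, in the 250 bases before each RefSeq start (GRCh38.p14). Capitals mark these motifs. For NCAPG, NCAPD2 and SMC4 the RefSeq start used lies inside the GENCODE gene bounds given above, and so do the stretches shown. For NCAPH the last 150 bases before the start (chr2:96335616-96335765, plus strand) are given, and for the others 30 bases around a motif, at chr4:17810932-17810961 for NCAPG, chr12:6493945-6493974 and chr12:6494060-6494089 for NCAPD2, chr3:160399563-160399592 for SMC4, chr10:110567532-110567561 for SMC3 and chr12:53268256-53268285 for ESPL1, all on the plus strand. ESPL1 encodes separase, which is lower in S3I-201 as described further on, and stands for comparison.
NCAPH: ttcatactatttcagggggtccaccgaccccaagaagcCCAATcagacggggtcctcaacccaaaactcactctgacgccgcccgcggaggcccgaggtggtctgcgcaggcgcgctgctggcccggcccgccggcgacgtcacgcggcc
NCAPG: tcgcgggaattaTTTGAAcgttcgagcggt
NCAPD2, CHR: cagccgttgagaTTTGAActcggtatttgt
NCAPD2, CCAAT box: actgccttgctaATTGGtgcgtgttgtgca
SMC4: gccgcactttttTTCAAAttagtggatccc
SMC3: cagaattctagaTTCAAAagaaatccacca
ESPL1: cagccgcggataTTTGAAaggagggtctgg

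NCAPG had a CHR from 35 to 30 bases before its start, and ESPL1 had the same letters from 31 to 26 bases before its own. PTTG1 and SGO2, which were also called lower, held no CHR in their windows. Of the partners in chromosome structure described further on, 5 of 5 with a listed window held a CHR. These were TOP2A, called lower, and TOP2B, KIF4A, MKI67 and CTCF, none of the latter past the threshold. CTCF stood at -0.11 in the authors' deposited table. CDCA5, from the list of genes that establish or protect cohesion, also held a CHR, at 0.14 there and not past. Among other lists described further on, a CHR was found in 0 of 2 condensin II genes with a listed window. The count was 0 of 5 for genes that load or release cohesin, 0 of 4 for meiotic cohesin and 0 of 6 for the SMC5/6 complex. Matches in the G2 and mitosis list were not counted. NCAPD2 had a CHR from 145 to 140 bases before the start and 4 CCAAT boxes, the nearest from 30 to 26 bases before it. NCAPH had no CHR letters in its 250 bases and a CCAAT box from 112 to 108 bases before the start. SMC4 had a CHR on the other strand, from 75 to 70 bases before the first of its listed starts, and SMC2 had neither motif. In all, 3 of 5 condensin I genes and 1 of 4 cohesin genes with a listed window, SMC3, held a CHR, beside 13.3% of 8972 tested genes with a window. A CCAAT box was found in 2 of 5 condensin I genes and in 2 of 4 cohesin genes, STAG1 and STAG2, beside 41.9% of those tested genes. An E2F site, searched as TTTCCCGC or TTTGGCGC or TTTCGCGC or TTTGCCGC, was found for SMC1A, STAG1 and STAG2 and for 0 of 5 condensin I genes, beside 5.83%. NCAPG and NCAPH, which had the lowest fold changes, thus differed in these motifs. No test was run on these counts, and a match is a description of the letters in the window.

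Levels of the subunits were compared per kb of merged exons, as mean normalized counts over all 6 libraries. In cohesin, RAD21 had 691 per kb, SMC3 575, SMC1A 521, STAG2 480 and STAG1 180. By this length the ring proteins and STAG2 lay within a factor of 1.44 of each other. STAG1 lay below all of them, at 0.375 of the level of STAG2. In condensin I, SMC4 stood highest at 927 per kb, followed by NCAPD2 at 638, NCAPH at 437, NCAPG at 363 and SMC2 at 338. SMC4 had 2.75 times the level per kb of SMC2, although the 2 proteins pair in the same complexes. The pooled means carry no spread over libraries, so neighbours in these orders cannot be told apart by a test.

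Lengths and overlaps bear on these levels, because the kit does not mark the strand and reads of overlapping genes cannot be told apart. LCORL lies opposite to NCAPG and shares 35.0% of its exon bases. PCCB shares 25.3% of those of STAG1, TRIM59 shares 23.9% of those of SMC4, UTP23 shares 9.35% of those of RAD21 and MRPL51 shares 8.35% of those of NCAPD2, each on the opposite strand. How reads in shared bases were assigned was not given in the sources used here. LCORL had a mean of 189 and -0.14 on the log2 scale, as the authors' deposited table gives it (adjusted p = 0.852). MRPL51 had a mean of 887 and -0.44 there (adjusted p = 0.0841). Their part in the values of NCAPG and NCAPD2 was not tested. When the whole mean was divided by the bases shared with no other gene, NCAPG stood at 558 per kb, above NCAPH at 437. This turns the order of these 2 genes. By the same division STAG1 stood at 241 and STAG2 at 482. Such values are too high where reads in shared bases were counted. Per kb of the longest coding transcript, RAD21 stood at 1021 and STAG2 at 527, just above SMC1A at 521. RAD21, SMC4 and NCAPD2 kept their ranks in their complexes under the 3 lengths, and so did SMC3, STAG1 and SMC2.

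**Figure D3:**
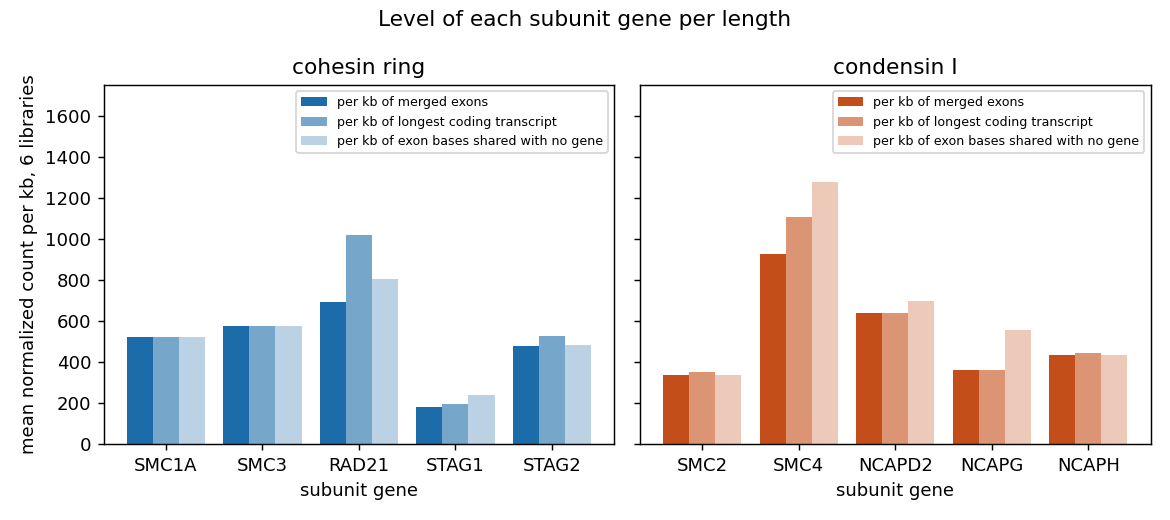
Mean normalized count per kb over the 6 libraries (y axis) of cohesin genes (left) and condensin I genes (right). The same whole mean was divided by 3 lengths: merged exons, the longest coding transcript and exon bases shared with no other gene. STAG1 has the lowest bar of cohesin under each length and SMC4 the highest of condensin I, at 927 per kb of merged exons.

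The other proteins of the pathway were described from lists, by their counts and medians, with no test of a list. The lists were chosen with earlier results of these data known, so their shares beside the background are no independent support. Condensin II, which stays in the nucleus and shapes chromosomes from prophase, had 0 of 3 own subunits past the threshold by the authors' DESeq2 adjusted p, and 0 at an unadjusted p under 0.05. With 5.90% and 16.0% of all tested genes past these thresholds, a count of 0 among so few genes sets them apart in no way. NCAPH2, its kleisin, had a log2 fold change of 0.22 (adjusted p = 0.509), NCAPD3 -0.19 (adjusted p = 0.697) and NCAPG2 -0.10 (adjusted p = 0.888) in the authors' deposited table. The kleisin of condensin II thus had a positive value and that of condensin I a negative one, and the difference between them was not tested. Of 5 factors that load or release cohesin, 0 passed by the same adjusted p and 0 had an unadjusted p under 0.05, with a median of 0.05. By the authors' deposited table MAU2, which loads cohesin together with NIPBL, had 0.23 (adjusted p = 0.482), while PDS5B had -0.14 (adjusted p = 0.774) and PDS5A -0.12 (adjusted p = 0.789), both regulators bound to the ring.

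Separase and its inhibitor securin fell in S3I-201. Of this pair, 2 of 2 were lower, beside 1.45% of all tested genes called lower. PTTG1, the securin that holds separase inactive until anaphase, fell by 0.84 (log2) in the authors' deposited table, or to 0.560-fold (adjusted p = 8.39e-04, implied SE 0.20). ESPL1, the separase that cuts RAD21, fell by 0.72, or to 0.607-fold, in that table (adjusted p = 0.0154, implied SE 0.21). Among 6 genes that establish or protect cohesion, 1 was lower, again beside 1.45%, and 5 did not pass, with a median of 0.01. The lower gene was SGO2, listed by its older symbol SGOL2, a shugoshin that guards cohesin at centromeres. SGO2 fell by 0.71 in the authors' deposited table, or to 0.611-fold (adjusted p = 0.0290, implied SE 0.22). The other shugoshin of the list, SGO1, named after its value was seen, had -0.23 there and did not pass (adjusted p = 0.725). Thus 3 regulators of cohesin cleavage or protection were called lower, while RAD21 itself had -0.10 and did not pass. The difference between them and RAD21 was not tested.

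Of 6 partners in chromosome structure 1 was lower, beside 1.45% of all tested genes, and 5 did not pass, with a median of -0.47. TOP2A, the topoisomerase that untangles chromosomes in mitosis beside condensin, fell by 0.84 in the authors' deposited table, or to 0.557-fold (adjusted p = 0.00483, implied SE 0.22). The other 5 genes of the list are given whole, a choice made after their values were seen. In the authors' deposited table KIF4A, a kinesin bound to chromosome arms, stood at -0.57 (adjusted p = 0.103) and MKI67, the Ki-67 protein on the chromosome surface, at -0.60 (adjusted p = 0.208). TOP2B, the topoisomerase of interphase, stood at -0.36 (adjusted p = 0.178), CTCF, which halts cohesin at loop ends, at -0.11 (adjusted p = 0.854) and MCPH1, which restrains condensin II, at 0.08 (adjusted p = 0.90) in that table. The implied SE of TOP2A matched that of NCAPH and NCAPG to 2 decimals, and its change was past the size that this spread allows to be called.

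The SMC5/6 complex, the relative of cohesin and condensin that acts in DNA repair, had 8 of 9 genes tested. Of these, the DESeq2 adjusted p of the authors called 0, beside 5.90% of all tested genes, and 1 had an unadjusted p under 0.05, beside 16.0%, with a median of 0.09. That gene was NSMCE4A, its kleisin, which the authors' deposited table puts at -0.32 (adjusted p = 0.189). NSMCE2, a SUMO ligase of the complex, had 0.25 (adjusted p = 0.531), and EID3 had 0.33 at a mean of only 4.24, with a p-value of 0.135 and no adjusted p, in that table. Of 4 subunits of meiotic cohesin, SMC1B was at 0, STAG3 had a mean of 5.35 and RAD21L1 0.135, both without an adjusted p. REC8, the meiotic kleisin, had a mean of 31.2 and 0.27 on the log2 scale, as the authors' deposited table gives it (adjusted p = 0.694).

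Most tested genes of a G2 and mitosis list, chosen with earlier results of these data known, were lower in S3I-201. Of 24 genes of G2 and mitosis 20 were tested, of which 16 were lower, beside 1.45% of all tested genes, and 4 did not pass, with a median of -0.93 over the tested genes. The 4 with the smallest adjusted p in the authors' deposited table were KIF20A, a kinesin of cytokinesis, at -1.70 (adjusted p = 2.21e-11), CCNB1, cyclin B1, at -1.48 (adjusted p = 2.31e-09), UBE2C, a ubiquitin carrier of the anaphase-promoting complex, at -1.28 (adjusted p = 8.69e-09) and CDC20, its activator, at -1.27 (adjusted p = 2.48e-08). All 24 had a negative value, and 4 of them had no p-value, as NCAPD2 had none. Among genes with a mean normalized count of 1000 to 7000, a range that does not hold all 24, the p-value was missing for 1.81%. Why it was missing for these genes was not tested. The condensin I median over all 5 genes was -0.28, nearer to 0 than each of those 24 values, of which the one nearest to 0 was -0.32, whereas NCAPG and NCAPH were more negative than that one.

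Of 20 genes of S phase 19 were tested, with 1 higher, beside 4.45% of all tested genes called higher, 18 not past and a median of 0.06. MCM5, a subunit of the replicative helicase, was the gene called higher, at 0.51 in the authors' deposited table (adjusted p = 0.0206, implied SE 0.15). MCM7 of the same helicase had -0.44 (adjusted p = 0.0940), PCNA, the sliding clamp, 0.41 (adjusted p = 0.109) and CDC45, a helicase cofactor, 0.28 (adjusted p = 0.407) in the authors' deposited table. CDC6, the gene not tested, had 0.76 in that table with no p-value, the highest value of the list. It is named after its value was seen. The cohesin median of -0.10 lay between the S phase median of 0.06 and the mitosis median of -0.93. Tested genes of similar abundance had a median of -0.05. With the abundance trend removed the cohesin median was -0.03. The part of cell cycle state in the condensin I values was not tested, and in bulk RNA fewer cells in mitosis and less RNA per cell cannot be told apart.

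**Figure D4:**
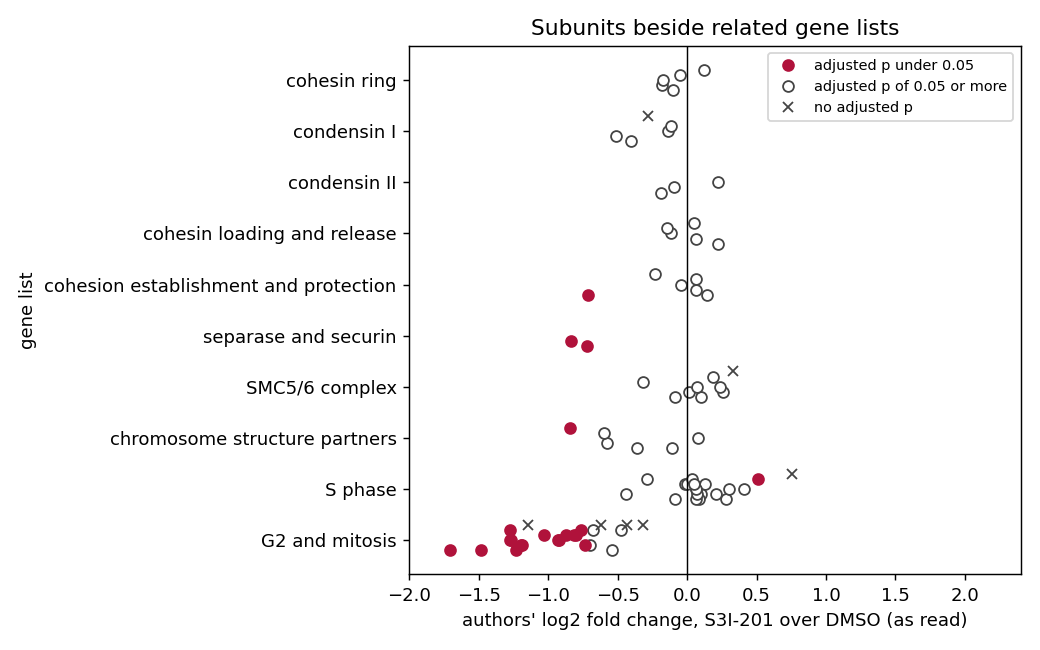
Authors' log2 fold change (x axis, S3I-201 over DMSO as read) of each gene by list (y axis); filled points passed an adjusted p of 0.05, open points did not, and crosses have no adjusted p. Cohesin and condensin I hold no filled point, and 16 of 20 tested genes of G2 and mitosis are filled on the lower side.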

How the data were processed

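RNA-seq libraries of 3 S3I-201 and 3 DMSO cultures were grouped by their titles. The submitters' processing notes name hg38, bcl2fastq 2.19, Trimmomatic, Bowtie2, Picard, featureCounts and DESeq2, with no role or order, while annotation, strand setting and model formula are not given in the sources used here. As for the values, the mean normalized count, a signal over the 6 libraries, is the authors' own, per the file headers. The authors deposited a log2 fold change for each expressed gene. Each p-value and adjusted p is likewise the authors' result, named so per the file headers, and was taken as deposited over 11912 genes with a mean of at least 10.0. Adjusting the p-values again by Benjamini-Hochberg came within 0.675% of the deposited ones. The planned fallback for a table with no values per library was used. P-values rest on libraries from independent experiments, per the series' design text.

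Size factors came from sums of 6 steps, which explained 100% of 2067 genes with a mean under 0.6 within 1e-05. Intervals used the implied SE and belong to fold changes that appear shrunken. Exon lengths, overlaps and coordinates came from GENCODE 29 (basic set, hg38), and promoters from RefSeq (GRCh38.p14), matched by symbol for 9 of the 10 members. The implied SE, the adjustment and the trend removal were tested on simulated data. Python 3.11.15, pandas 2.3.3 and scipy 1.17.1 were used. The members and lists were chosen with earlier results of these data known. Named were all members, list genes past 0.05 or, in lists with none, up to 3 with the smallest p, and up to 4 of each cell cycle list with the smallest adjusted p. Thresholds of 0.01 and 0.1, a least log2 size of 0.5, adjustment over every p-value, removal of the abundance trend and, chosen after seeing the data, other lengths were tried as alternatives.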

Additional observations from a re-analysis of the deposited data

How the results depend on the processing

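The count of 0 cohesin and condensin I genes past the threshold was also 0 at an adjusted p of 0.1, with adjustment over every gene with a p-value, and with the median fold change of 20 abundance bins removed. The stricter settings, an adjusted p of 0.01 or a log2 size of at least 0.5, can only give 0 here and say nothing about stability. Adjustment over every gene with a p-value raised the adjusted p of each tested member. Trend removal moved each negative value towards 0, and only STAG2 away from it. Both settings thus made a call harder for the negative genes and say little about stability. The adjusted p of NCAPH ranged from 0.184 to 0.260 over the deposited and these other adjustments and that of NCAPG from 0.379 to 0.518. With the abundance trend removed, the log2 fold change of NCAPH was -0.47, that of NCAPG -0.36 and that of STAG2 0.19, and all 10 genes kept their sign, with STAG1 at -0.00. Over all genes, 442 were called at 0.01 against 703 at 0.05, the lower count following from the stricter threshold, and 636 to 898 under the other settings. In the other lists no count changed with the adjustment or the trend, except S phase, where PCNA also passed with the trend removed (adjusted p = 0.0367). SGO2 passed in both cases, with an adjusted p of 0.0409 over every gene with a p-value and 0.0422 with the trend removed. No paired analysis was possible because the table holds no values per library, and leaving out a library could not be run for the same reason.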
